A study of Mus musculus with 15 samples.

Results

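Pixels rich in transcripts of the fibrillar collagen genes Col1a1, Col1a2 and Col3a1 were examined in sections of mouse embryos measured by spatial barcoding. In this method 2 sets of barcodes are flowed across a section in crossed microfluidic channels, so that transcripts are counted for each square, or pixel, where 2 channels cross. Pixels were taken as tissue if they held 0.1 or more of the 95th percentile of totals in their section. Collagen-high pixels were the tissue pixels of a section in the top 10% by summed Col1a1, Col1a2 and Col3a1 counts per 10000 counts, with at least 3 such counts and fewer than 3 counts of Col2a1, the chief collagen of cartilage. The rule found 895 collagen-high pixels among 11714 tissue pixels (7.64%) in 8 sections, and they were compared with the other 10819 tissue pixels of the same sections.

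Embryonic days 10 (E10), 11 (E11) and 12 (E12) were sampled. At E10 there were 3 sections with pixels 50 µm wide and 2 with pixels 10 µm wide, at E11 there were 2 with pixels 25 µm wide, and at E12 there was 1 with pixels 50 µm wide. All were frozen sections of whole embryo tissue, and the labels give no strain, genotype or treatment that sets 1 group apart. Neither the embryo nor the body region of a section is given, nor whether sections of a group come from separate embryos. The p-values below therefore refer to the spread between these sections. The fits estimated that spread partly from all genes tested together, so a p-value does not rest on a gene's own values alone. Stage and pixel width change together between E10, E11 and E12 except between E10 and E12 at 50 µm, and their parts cannot be told apart elsewhere. A pixel can hold several cells of different types, and a lower level in pixels can mean fewer cells of a type or less RNA per cell, which cannot be told apart.

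Fibrillar collagens are triple helices of 3 chains that assemble outside the cell into the fibres of connective tissue. Type I collagen joins chains made from Col1a1 and Col1a2, and type III collagen is made of chains from Col3a1 alone. The chains are hydroxylated, folded and checked in the endoplasmic reticulum, trimmed after secretion and then crosslinked by lysyl oxidases. In the midgestation embryo these genes mark loose mesenchyme, the coverings of organs and vessel walls, ahead of bone and tendon.

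In GENCODE M21 (GRCm38), Col1a1 lies at chr11:94936224-94953042, Col1a2 at chr6:4504814-4541544 and Col3a1 at chr1:45311538-45349706, all 3 on the plus strand. The 150 bases before the RefSeq start (GRCm38.p6) are shown for Col1a2 (chr6:4505468-4505617) and Col3a1 (chr1:45311388-45311537), because they are among the genes that chose the pixels; no window is shown for Col1a1. The Col1a2 stretch lies inside the GENCODE span of the gene, which starts further upstream than the RefSeq start. Capitals mark CCAAT in Col1a2, at 109 to 105 bases before the start, and TATAAA in Col3a1, at 117 to 112 bases before it.
Col1a2: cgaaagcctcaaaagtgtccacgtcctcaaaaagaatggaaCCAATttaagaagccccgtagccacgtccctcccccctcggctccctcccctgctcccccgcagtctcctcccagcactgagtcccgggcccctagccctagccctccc
Col3a1: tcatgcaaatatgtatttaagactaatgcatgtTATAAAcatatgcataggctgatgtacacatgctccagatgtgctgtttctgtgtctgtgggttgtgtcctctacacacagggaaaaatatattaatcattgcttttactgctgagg
The CArG box and the motif TTTAAA were searched too, all on both strands, and no other match was found in either stretch. Over 32851 RefSeq promoters, the same window held CCAAT in 24.5%, TATAAA in 7.57%, TTTAAA in 6.75% and a CArG box in 0.916%, so neither match is rare.

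The values that chose the pixels are given here as a description, with no test. Summed over pixels, the 3 collagens made up 20 to 73.6 counts per 10000 in the collagen-high pixels and 4.71 to 22.8 in the other tissue pixels. The cut fell lowest in E10 50 µm section 3, at 14.09 per 10000, and highest in the E12 section, at 56.85. There was no gap at the cut: in E10 50 µm section 1 the lowest member had 22.36 and the highest pixel under the cut 22.35, and in the E12 section these were 56.87 and 56.82. The members held 9.70% to 32.7% of all counts of the 3 genes in a section, in 2.43% to 7.78% of its counts, so most collagen transcripts lay outside them. Of 1175 pixels in the top 10%, 261 were left out of the members for Col2a1 and 19 for holding under 3 collagen counts. These were counted among the other tissue pixels, which are thus not all low in collagen. The Col2a1 limit removed 43 of 86 pixels of the top 10% in E10 50 µm section 1 and 44 of 84 in section 3. In the E12 section it removed 16 of 154.

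Collagen-high pixels were shallower than the rest of the tissue in every section. Their median total count was between 0.472 of that of the other pixels (5502 against 11650 in E10 50 µm section 1) and 0.888 of it (3190 against 3593 in the E12 section). The rule limits raw counts of Col2a1, which deeper pixels reach more easily, so it bears on the depth of members. Its part in their depth, and in the missing tissue neighbours given next, was not tested. A member held a median of 6 to 23 collagen counts, depending on the section. In most sections members also lacked a tissue neighbour more often than the other pixels did. In E10 50 µm section 1, 83.7% of members lacked at least 1 of 4 tissue neighbours, against 26.5% of the other pixels. In E10 50 µm section 2 the shares were 27.5% and 30%. In the other 6 sections 24.6% to 50.0% of members and 19.3% to 29.0% of other pixels lacked at least 1. A missing neighbour can lie at the outline of the tissue or at a gap inside it, and these were not told apart. The comparison of the 2 classes across genes was therefore repeated with the other pixels limited to the depth range of the members, between the 10th and 90th percentile of their totals. The held-out collagens were not fitted this way.

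The members were clustered in space. Of the tissue neighbours of a member, 17.7% to 51% were members too, while members made up 3.29% to 6.91% of the neighbours of other pixels. In all, 565 of 895 members touched another one. The patches were largest in E10 50 µm section 2, where 1 patch joined 37 of 69 members, and in the E12 section, where 1 joined 31 of 138. In E10 50 µm section 1 no patch held more than 3 pixels, and 19 of 43 members touched another.

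**Figure D1:**
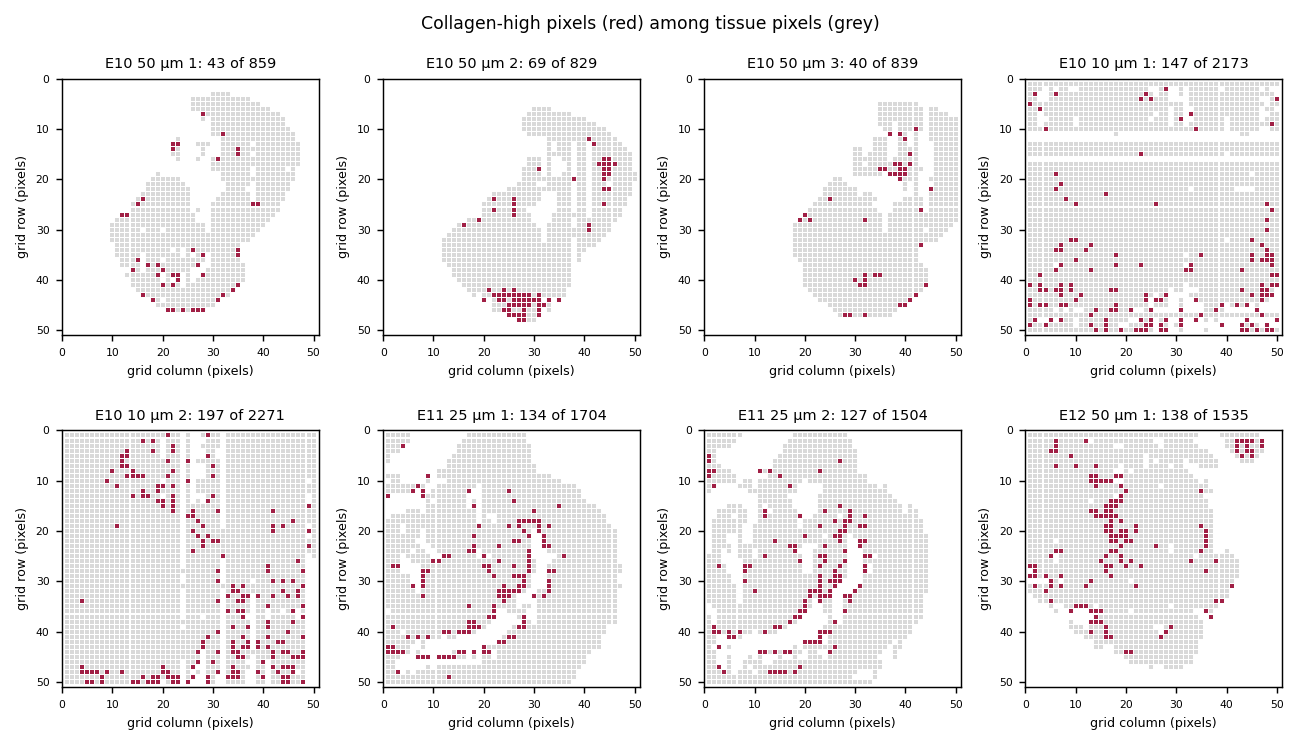
Grid position of tissue pixels (grey squares) and collagen-high pixels (red squares) in each of the 8 sections, with grid column and row in pixels on the axes and the counts of both in each title. The red pixels form a broad patch in E10 50 µm section 2 and bands in the E11 and E12 sections. In E10 50 µm section 1 they form a thin scatter, mostly beside grid positions not taken as tissue.

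Whether the 3 collagens mark the same pixels was asked by choosing pixels with 2 of them and reading the third, which had no part in the choice. Each held-out collagen was higher in the chosen pixels in 8 of 8 sections, and the ratio of CPM (counts scaled to a total of 1000000 over the summed pixels) was smallest in E10 10 µm section 1 for all 3 genes.

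Held-out Col1a1 measured 244, 224 and 167 CPM in the chosen pixels of E10 50 µm sections 1 to 3, 235 and 350.0 CPM in E10 10 µm sections 1 and 2, 955 and 1027 CPM in the E11 sections, and 1051 CPM at E12. The other pixels of the same sections held 59.3, 65.0, 52.5, 110, 69.9, 114, 106 and 337 CPM in the same order. The chosen pixels of every E10 section were below those of E11 and E12, and every section's own pixels stood apart by a ratio of 2.14 to 9.68. Its log2 fold change was 2.13 ± 0.27 (SE; edgeR quasi-likelihood test paired by section, n = 8 sections, adjusted p = 0.00181).

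Held-out Col1a2 ran from 423 CPM (E10 50 µm section 3) over a second-lowest 549 CPM (E10 10 µm section 2) to 2338 CPM (E12) in the chosen pixels. It ran from 156 to 1072 CPM in the other pixels, with ratios of 1.91 to 4.29. The log2 fold change was 1.58 ± 0.15 (SE; edgeR, n = 8, adjusted p = 0.000111). Held-out Col3a1 ran from 887 to 2340 CPM in the chosen pixels and from 279 to 1027 CPM in the others, with ratios of 1.96 to 5.0. Its log2 fold change was 1.65 ± 0.15 (SE; edgeR, n = 8, adjusted p = 0.000398). In both genes the ranges of the 2 pixel classes overlapped between sections. The other pixels of the E12 section and of E10 10 µm section 1 lay above the lowest chosen pixels. Held-out Col1a1 overlapped too: the other pixels of the E12 section, at 337 CPM, lay above the lowest chosen pixels, at 167 CPM. Within each section the chosen pixels were higher. Fitted without the section as a block, Col1a1 and Col1a2 no longer passed (edgeR adjusted p = 0.0775 and 0.187).

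**Figure D2:**
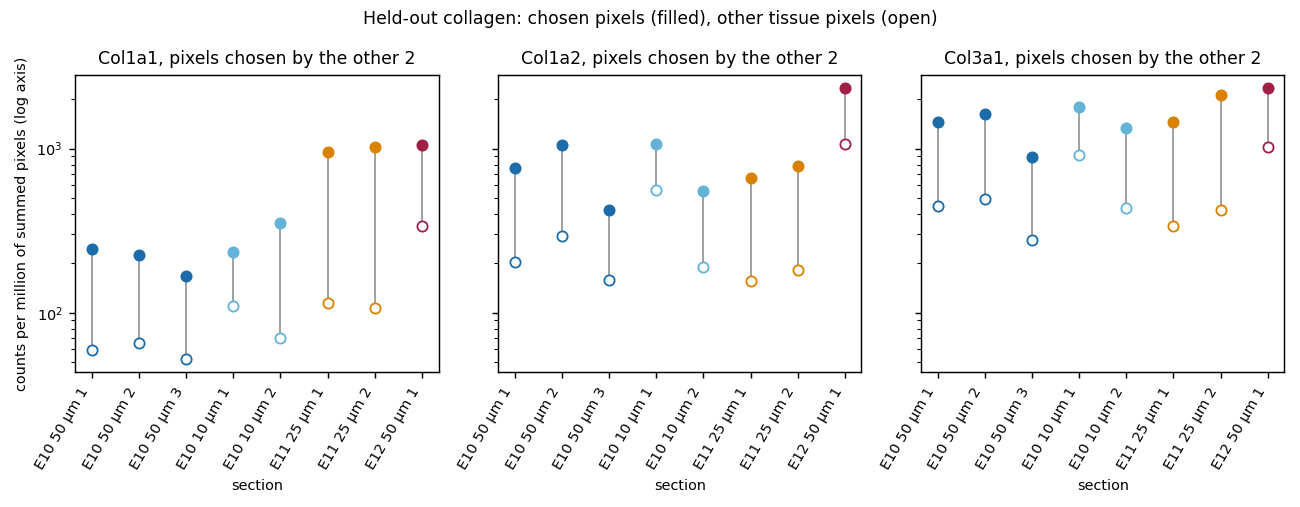
CPM of Col1a1, Col1a2 and Col3a1 (log axis) in pixels chosen by the other 2 collagens (filled points) and in other tissue pixels (open points), with a line joining the 2 values of each of the 8 sections. In every section and for every gene the filled point is the higher one, and the ratio ranges from 1.91 to 9.68.

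The make-up of the collagen counts differed between sections. Col3a1 had the most counts of the 3 genes in 576 members, Col1a2 in 181 and Col1a1 in 58, with ties in 80; these counts are not corrected for transcript length and do not rank the genes' expression. Col1a1 made up 8.76%, 7.30% and 11.5% of the 3 genes' counts in the members of E10 50 µm sections 1 to 3, and 6.69% and 10.8% in those of E10 10 µm sections 1 and 2. It made up 31.2% and 22.8% in the E11 sections and 16.7% in the E12 section. The E11 and E12 sections therefore lay above all 5 E10 sections.

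The exact 95% binomial intervals behind these shares cover counting error only. The highest E10 share, in E10 50 µm section 3, had an interval of 9.09% to 14.2%, and the lowest later share, at E12, one of 15.5% to 18%. The mean was 9.01% ± 2.11 (SD, n = 5) at E10 and 23.6% ± 7.28 (SD, n = 3) at E11 and E12 together. In the other tissue pixels the Col1a1 share was 8.98% ± 1.79 (n = 5) and 15.2% ± 1.31 (n = 3). The Col3a1 share in members was 61.6% ± 3.99 at E10 (n = 5) and 48.9% ± 9.21 later (n = 3), and that of Col1a2 was 29.4% ± 5.64 and 27.6% ± 13.2. These counts also chose the pixels and the grouping of E11 with E12 was made after the values were seen, so the shares are a description, with no test.

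**Figure D3:**
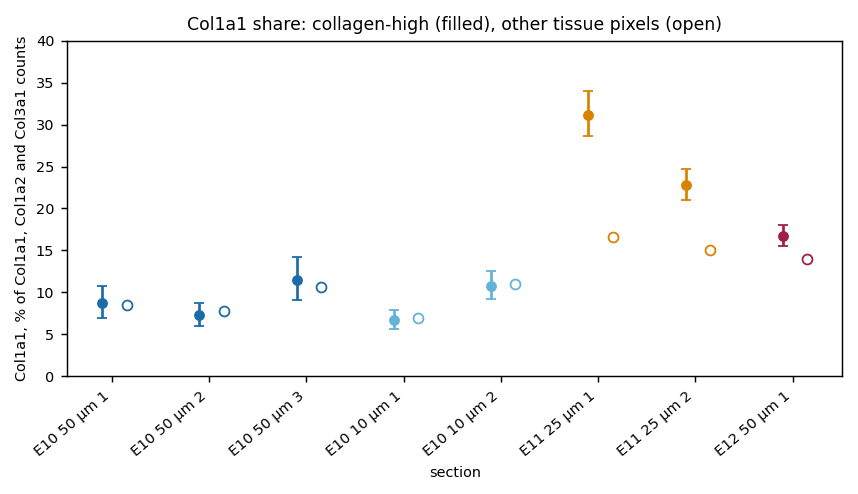
Col1a1 counts as a percentage of the summed Col1a1, Col1a2 and Col3a1 counts in collagen-high pixels (filled, bars are exact 95% binomial intervals) and in other tissue pixels (open) of each section. All 5 E10 sections lie between 6.69% and 11.5% in the collagen-high pixels, and the 3 later ones between 16.7% and 31.2%.

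Across the other genes, collagen-high pixels carried more transcripts of matrix and mesenchyme genes and fewer of neural genes than the rest of the tissue. Counts were summed over the pixels of each class in each section and tested in edgeR with the section as a block. Of 12480 genes tested, 774 (6.20%) were higher in collagen-high pixels and 598 (4.79%) were lower at an adjusted p under 0.05. DESeq2 called 738 and 374. With the other pixels limited to the members' depth range, 417 of 10320 genes (4.04%) were higher and 201 (1.95%) lower. The median log2 fold change over all tested genes was -0.033, and 421 genes (3.37%) were higher in all 8 sections. The 4 genes of the rule were left out of this test.

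Among the genes with at least 50 counts in members and 1 direction in all 8 sections, the 15 with the largest rise were named. Tagln, an actin-binding protein of smooth muscle, had the largest log2 fold change (2.25 ± 0.38 SE, edgeR adjusted p = 0.00815, n = 8). It measured 127, 59.8, 113, 96.0 and 74.6 CPM in the members of the 5 E10 sections, 762 and 572 CPM at E11 and 59.4 CPM at E12. The other pixels held 29.9, 26.5, 19.4, 42.2, 12.0, 75.8, 57.8 and 37.5 CPM. The members of the 2 E11 sections were far above the others. The lowest member value, at E12, lay under 1 value of the other pixels, the 75.8 CPM of E11 section 1, so the classes overlapped between sections but not within one. Osr1, a zinc finger factor of intermediate mesoderm and connective tissue progenitors, measured 29.0, 49.4, 40.9, 40, 21.3, 28.2, 30 and 174 CPM in members, against 7.68, 5.37, 8.92, 11.4, 6.38, 7.68, 7.42 and 51.4 CPM. Its log2 fold change was 2.06 ± 0.21 (SE; edgeR adjusted p = 7.49e-10). The E12 section stood apart as high in both classes, and the other 7 sections did not overlap between classes.

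Creb3l1, a membrane-bound factor of the endoplasmic reticulum that switches on collagen genes, had 56 counts in members, from 6.29 to 37.6 CPM against 1.12 to 14.8 CPM (log2 fold change 2.03 ± 0.34 SE, edgeR adjusted p = 1.87e-05). Rgs5, a regulator of G-protein signals and a marker of pericytes, ran from 7.11 to 145 CPM against 2.49 to 25.7 CPM (1.90 ± 0.37 SE, adjusted p = 0.0016). In Creb3l1 and Rgs5 the classes overlapped between sections.

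Ahnak, a very large scaffold protein of the cell membrane, was the largest rise whose classes did not overlap at all. It measured 297, 468, 273, 613, 334, 391, 465 and 584 CPM in members, and 73.1, 123, 55.4, 216, 114, 99.4, 93.6 and 264 CPM in the other pixels. Its lowest member value, in E10 50 µm section 3, lay above its highest background value, at E12. The log2 fold change was 1.82 ± 0.12 (SE; edgeR adjusted p = 2.12e-09) and 1.43 in the depth range of the members. Lama2, a laminin chain of basement membranes, was also apart, from 37.5 to 115 CPM against 8.72 to 35.6 CPM (1.79 ± 0.19 SE, adjusted p = 7.49e-10).

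The other named rises had log2 fold changes of 1.65 to 1.81. They were Postn (periostin, a matrix protein of connective tissue), Egfr (the epidermal growth factor receptor), Cd248 (endosialin of stromal cells and pericytes), Lum (lumican, a small proteoglycan on collagen fibres), Fbn1 (fibrillin of elastic microfibrils) and Crispld2, a secreted protein. Prdm6, a regulator of smooth muscle genes, Mmp23, a metalloproteinase, and Loxl1, a crosslinking enzyme of elastic fibres, completed them. Crispld2, Prdm6, Mmp23 and Loxl1 were highest in the 2 E11 sections: Crispld2 measured 335 and 182 CPM in their members and 18.1 to 89.0 CPM in those of the other 6 sections. Lum was lowest there, at 32.3 and 60 CPM against 101 to 184 CPM in members elsewhere. The other pixels were also lowest in Lum at E11, at 4.77 and 11.7 CPM against 24.2 to 69.3 CPM elsewhere. Its log2 ratios were thus largest there, at 2.04 and 2.14 against 1.21 to 1.92. In the depth range of the members 14 of the 15 passed in edgeR, with log2 fold changes of 1.02 (Prdm6) to 1.75 (Tagln); Osr1 had 1.52, Creb3l1 1.56, Rgs5 1.36 and Lama2 1.30. Postn passed at 0.0435 in edgeR over all other pixels and did not in the depth range (1.31, adjusted p = 0.13). It passed in 8 of 19 alternatives in all, Loxl1 in 13, and each of the other 13 in 18 or 19.

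The 10 named falls were led by genes of the neural tube. Pax6, a factor of neural and eye progenitors, measured 43.5, 13.0, 40.9, 24.0, 124, 24.2 and 22.5 CPM in members of the E10 and E11 sections and had no count in 138 members at E12. The other pixels held 81.5, 103, 211, 73.4, 211, 251, 133 and 10.3 CPM. The E12 section was low in both classes, and E10 10 µm section 2 held the highest member value, at 124 CPM. The log2 fold change was -1.94 ± 0.31 (SE; edgeR adjusted p = 0.00294). Sox2, a factor of neural progenitors, ran from 13.9 to 138 CPM in members and from 34.2 to 246 CPM in the other pixels (-1.50 ± 0.14 SE, adjusted p = 4.92e-10).

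Pou3f2 and Pou3f4, POU factors of the nervous system, fell by 1.65 and 1.35 on the log2 scale, and Hes5, a Notch target of neural progenitors, fell by 1.48. Celsr2, an atypical cadherin, Adgrv1 and Adgrg1, adhesion receptors, Cntn2, an adhesion protein of axons, and Kif21a, a kinesin motor, fell by 1.32 to 1.47 (edgeR adjusted p from 9.32e-10 to 2.3e-06). In the depth range of the members these 10 genes had log2 fold changes of -1.29 to -0.83, and all 10 passed there.

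**Figure D4:**
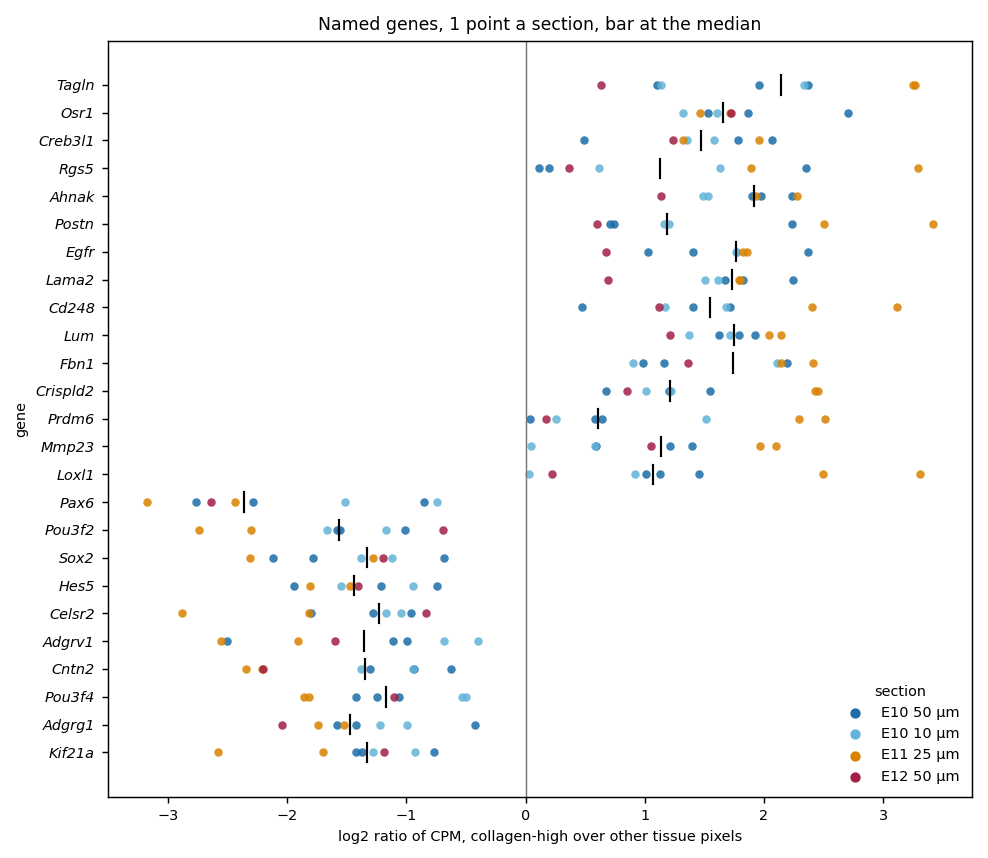
Log2 ratio of CPM (collagen-high over other tissue pixels, with 1 count added at the members' depth) for the 25 named genes, 1 point for each of 8 sections coloured by group and a bar at the median. All points of the first 15 genes lie right of 0 and all points of the last 10 left of it, as the naming rule requires, and the orange E11 points lie farthest right in Tagln, Crispld2 and Prdm6.

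Collagens beyond the 3 of the rule were next described by family, on lists chosen with earlier results of these data known. Of 7 other fibrillar collagens 4 passed the filter on low counts, and 2 of the 4 rose: Col5a1 (log2 fold change 1.42, edgeR adjusted p = 1.16e-12) and Col5a2 (1.40, adjusted p = 3.25e-13), chains of type V collagen, which starts and limits the growth of type I fibres. Both were higher in 8 of 8 sections and kept 1.09 and 1.13 in the members' depth range. Col11a1 (0.53, adjusted p = 0.23) and Col27a1 (0.23, adjusted p = 0.701), which belong mainly to cartilage, did not pass. The Col2a1 limit of the rule bears on both. The list's median was 0.97, against -0.033 over all genes tested.

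Over the 8 lists of matrix and mesenchyme genes, from these fibrillar collagens to the mesenchyme factors, 77 of 121 tested genes rose and none fell in edgeR. Over all 12480 genes tested 6.20% rose and 4.79% fell, and in the members' depth range 4.04% rose and 1.95% fell. The count of each list below is to be read beside these shares. At an unadjusted p under 0.05, 2 were lower, and DESeq2 called 0 lower.

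Of 14 collagens of other families, all tested, 10 rose and none fell, with a median of 1.10. Col4a1, the main basement membrane collagen with Col4a2, measured 848, 1080, 808, 835, 892, 2090, 1060 and 475 CPM in members and 309, 376, 347, 445, 350, 480, 276 and 365 CPM in the other pixels. The gap was widest in E11 section 1 and narrowest at E12, and only the E12 members fell within the range of the background pixels. Col12a1, which decorates collagen fibres, had the largest log2 fold change (1.63, edgeR adjusted p = 0.00476), followed by the beaded-filament chains Col6a1 (1.44, adjusted p = 0.000375), Col6a2 (1.41, adjusted p = 4.93e-08) and Col6a3 (1.39, adjusted p = 7.5e-05). Col4a1 followed at 1.37 (adjusted p = 0.00308). Col8a1 (1.04, adjusted p = 0.113), Col16a1 (1.00, adjusted p = 0.144) and Col14a1 (0.19, adjusted p = 0.813) did not pass. In the members' depth range 9 of 11 tested passed.

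Of 32 genes for collagen processing and crosslinking, 29 were tested, 19 rose and none fell, with a median of 0.78. The largest was Adamts2, which trims the amino end of procollagen, with 79 counts in members (2.15, edgeR adjusted p = 0.000217, higher in 6 of 8 sections). Lox and Loxl2, lysyl oxidases, rose by 1.53 (adjusted p = 6.7e-06) and 1.31 (adjusted p = 1.33e-08), and Pcolce, which speeds the trimming of the carboxyl end, by 1.5 (adjusted p = 1.49e-12). Serpinh1, the collagen chaperone HSP47, measured 471, 328, 242, 395, 437, 371, 395 and 321 CPM in members against 250, 172, 190, 280, 248, 173, 186 and 182 CPM, a rise in 8 of 8 sections (0.82, adjusted p = 3.01e-10). General folding enzymes differed less: P4hb had a log2 fold change of 0.34 (adjusted p = 0.00049) and Ppib one of 0.17 (adjusted p = 0.27). P4ha1 (-0.07, adjusted p = 0.877) and Pcolce2 (-1.13, adjusted p = 0.0717) did not pass. In the members' depth range 10 of 26 tested rose, and Adamts2 was too low to test there.

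Small leucine-rich proteoglycans bind collagen fibres and set their width. Of 8 genes 5 were tested and all 5 rose: Lum (1.77, edgeR adjusted p = 1.89e-13), Bgn (1.45, adjusted p = 9.32e-10), Fmod (1.17, adjusted p = 0.0407), Dcn (1.06, adjusted p = 0.013) and Ogn (1.04, adjusted p = 0.0274). Lum and Bgn were higher in 8 of 8 sections. Dcn, decorin, was lower in members in E10 50 µm section 2 (7.80 against 9.12 CPM) and E11 section 1 (8.07 against 24.3 CPM), and highest at E12 (291 against 86.7 CPM). Of the 3 tested in the depth range 2 rose; Dcn did not pass there (adjusted p = 0.0995), and Fmod and Ogn were too low to test.

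Elastic and adhesive matrix genes mostly rose: of 21 genes 19 were tested, 17 rose and none fell, with a median of 1.14. Fbn2, a fibrillin of embryonic microfibrils, measured 703, 1330, 1180, 2200, 1460, 1110, 1090 and 1390 CPM in members and 275, 465, 422, 838, 540, 437, 386 and 835 CPM in the other pixels. Members were higher in each section, and their lowest value, in E10 50 µm section 1, lay within the background range. Its log2 fold change was 1.34 (edgeR adjusted p = 1.91e-16). Tnc, tenascin C, rose by 1.85 (adjusted p = 0.0336) in 7 of 8 sections, and at E12 it was lower in members (65.3 against 77.6 CPM). Fbln5, a fibulin of elastic fibres, rose by 1.65 (adjusted p = 0.000581), and Sparc, a collagen-binding matrix protein, by 1.19 (adjusted p = 0.00213). Fn1, fibronectin, (0.89, adjusted p = 0.143) and Thbs1 (0.68, adjusted p = 0.181) did not pass. In the depth range 12 of 17 tested rose, and Tnc did not pass there (1.25, adjusted p = 0.0988).

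Among collagen receptors, 6 of 8 were tested and 4 rose. These were Ddr2, a tyrosine kinase receptor for fibrillar collagen (1.43, edgeR adjusted p = 2.05e-10), the integrin chains Itga1 (1.36, adjusted p = 0.000405) and Itgb1 (0.71, adjusted p = 8.99e-09), and Mrc2, which takes up collagen for breakdown (0.98, adjusted p = 2.94e-06). Ddr1, the related receptor of epithelia, had -0.30 (adjusted p = 0.362). Of 5 receptors tested in the depth range 3 rose, and Itga1 did not pass (0.81, adjusted p = 0.0524). Of 14 genes of TGF-beta signalling, a chief inducer of matrix genes, 13 were tested and 4 rose: the ligand Tgfb2 (1.19, adjusted p = 7.78e-09), the target Cyr61 (1.01, adjusted p = 0.00167), the receptor Tgfbr2 (0.98, adjusted p = 0.0149) and the ligand-binding Ltbp1 (0.79, adjusted p = 0.00407). The signal carriers Smad2 (0.08, adjusted p = 0.874) and Smad3 (0.12, adjusted p = 0.768) and the target Ctgf (0.68, adjusted p = 0.241) did not pass. Of 10 tested in the depth range 3 rose, and Tgfbr2 did not pass (0.62, adjusted p = 0.217).

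Of 35 mesenchyme factors and receptors 31 were tested, 16 rose and none fell, with a median of 0.85. After Osr1 the largest were Tbx18 (1.43, edgeR adjusted p = 2e-06), the platelet-derived growth factor receptors Pdgfra (1.35, adjusted p = 1.95e-06) and Pdgfrb (1.30, adjusted p = 1.32e-08), Snai1 (1.29, adjusted p = 0.0123) and Foxc1 (1.19, adjusted p = 3.41e-08). Pdgfra, a general marker of embryonic mesenchyme, measured 123, 185, 84.9, 203, 210.0, 137, 270.0 and 334 CPM in members against 41.2, 81.1, 28.8, 130, 43.4, 62.9, 77.4 and 176 CPM, and was higher in each section. Twist1 (0.89) and Prrx1 (0.78), factors of limb and head mesenchyme, also passed. Ebf1 (-0.03, adjusted p = 0.937), Zeb1 (0.14, adjusted p = 0.524) and Foxf1 of gut mesenchyme (-0.48, adjusted p = 0.604) did not. In the depth range 11 of 28 rose, and Snai1 did not pass (0.94, adjusted p = 0.114).

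Most osteoblast and tendon markers were scarce. Of 7 osteoblast genes only Alpl had counts enough to test (-0.42, edgeR adjusted p = 0.634); Sp7 and Bglap had 1 count each in members and Ibsp 2. Runx2, the chief transcription factor of osteoblasts, was too low to test as well, with 32 counts in members, of which 28 lay in the E12 section (55.4 CPM against 44.4 CPM in the other pixels). Of 6 tendon genes 2 were tested and Fmod rose, while Scx, with 21 counts, Mkx with 10 and Tnmd with 7 were too low to test. Of 12 cartilage genes 9 were tested, none rose and Sox6 fell (-1.02, adjusted p = 8.22e-05); the Col2a1 limit of the rule bears on this list. Sox6 fell in the depth range too (-0.97, adjusted p = 0.000463). Sox9, with 386 counts in members, was at -0.29 (adjusted p = 0.235). Of 11 skeletal muscle genes 7 were tested and Pax7 (-1.53, adjusted p = 0.0223) and Pax3 (-0.92, adjusted p = 0.0357) fell in edgeR. DESeq2 called 0 of them, Pax7 had 10 counts in members and was too low to test in the depth range, and Pax3 did not pass there (-0.38, adjusted p = 0.545). Of the other muscle genes tested, Des (0.37, edgeR adjusted p = 0.454), Actc1 (0.25, adjusted p = 0.819) and Tnnt1 (-0.56, adjusted p = 0.263) did not pass. Myf6 had no count and Myf5 had 1.

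Several markers of vessel walls were also higher in the members. Of 9 smooth muscle and pericyte genes, all tested, 4 rose (Myh11, Tagln, Rgs5 and Kcnj8) and none fell, with a median of 1.55. Their summed level was 163 to 2450 CPM in members and 81.1 to 494 CPM in the other pixels, higher in members in 8 of 8 sections. Acta2, smooth muscle actin, measured 236, 54.6, 167, 115, 32, 1020, 1280 and 317 CPM in members against 68.5, 75.2, 33.2, 148, 12.0, 131, 173 and 238 CPM. It was high in the members of both E11 sections and below the other pixels in E10 50 µm section 2 and E10 10 µm section 1, and did not pass (1.52, edgeR adjusted p = 0.119). Myh11, smooth muscle myosin, passed (2.61, adjusted p = 0.0418) with 101 and 110.0 CPM at E11, 154 CPM at E12 and at most 12.6 CPM in members at E10, where 2 of 5 sections had no count. Of 7 tested in the depth range 3 passed, and Myh11 and Kcnj8 were too low to test. Of 9 endothelial genes 5 rose, with a summed level of 328 to 786 CPM in members against 186 to 405 CPM, and a median of 0.80. Cdh5, VE-cadherin, led them (1.25, adjusted p = 0.0121), and 2 of the 9 passed in the members' depth range. Of 9 macrophage genes 7 were tested and 2 rose: Mrc1 (1.31, adjusted p = 3.43e-05) and C1qb (0.97, adjusted p = 0.000782), with a summed level of 94.3 to 196 CPM against 46.8 to 143 CPM. Both passed in the depth range (0.92 and 0.70). The part of these cells in the collagen results was not tested.

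Red cell transcripts were abundant in both classes. The 9 red cell genes summed to 14600 to 70700 CPM in members and 15000 to 92200 CPM in the other pixels, higher in members in 5 of 8 sections, and no gene passed in either direction (edgeR; Hbb-y 0.57, adjusted p = 0.187). At an unadjusted p under 0.05, 3 were higher and 0 lower, and DESeq2 called 0. Of 8 heart muscle genes none passed in edgeR or DESeq2 and 1 was lower at an unadjusted p under 0.05, with a median of -0.38; in the depth range Nppa fell (-1.75, adjusted p = 0.000105). Of 8 liver genes 2 were tested and Apoa2 fell in edgeR (-2.04, adjusted p = 0.015), while DESeq2 called 0. Apoa2 was lower in members in 5 of 8 sections and higher in 3, which were all at E10, and its contrast was lower at E11 and at E12 than at E10 (log2 difference -3.30, adjusted p = 0.0359, and -3.62, adjusted p = 0.00764). It was too low to test in the depth range. Afp, not tested, had 6.29 CPM in members of E10 50 µm section 3, 297 to 391 CPM at E11 and E12, and no count in members of the other 4 E10 sections.

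Neural genes were lower. Of 8 neural progenitor genes 6 fell and none rose (median -1.34), and of 10 neuron genes 9 fell and none rose (median -0.76). Tubb3, a tubulin of neurons, measured 359, 182, 258, 42.7, 153, 60.5, 67.5 and 17.8 CPM in members against 488, 332, 507, 136, 210.0, 89.2, 98.8 and 97.1 CPM. It was lower in members in each section, by most at E12 (-0.86, edgeR adjusted p = 0.00157). In the depth range 5 of 8 and 9 of 10 fell. Vim (0.03, adjusted p = 0.873) and Nes (-0.11, adjusted p = 0.46), the 2 progenitor genes that did not pass, also serve in mesenchyme. Of 7 neural crest and glia genes 5 were tested and Ets1, also a factor of endothelium, rose (1.06, adjusted p = 2.57e-06); Sox10 had -0.49 (adjusted p = 0.599). Of 10 epithelial genes 6 were tested and Epcam fell (-1.84, adjusted p = 0.00129; -1.83 in the depth range, adjusted p = 0.00354). Of 6 mesothelium genes 2 were tested and neither passed in edgeR, also unadjusted, or in DESeq2 (Wt1 0.43, edgeR adjusted p = 0.466).

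**Figure D5:**
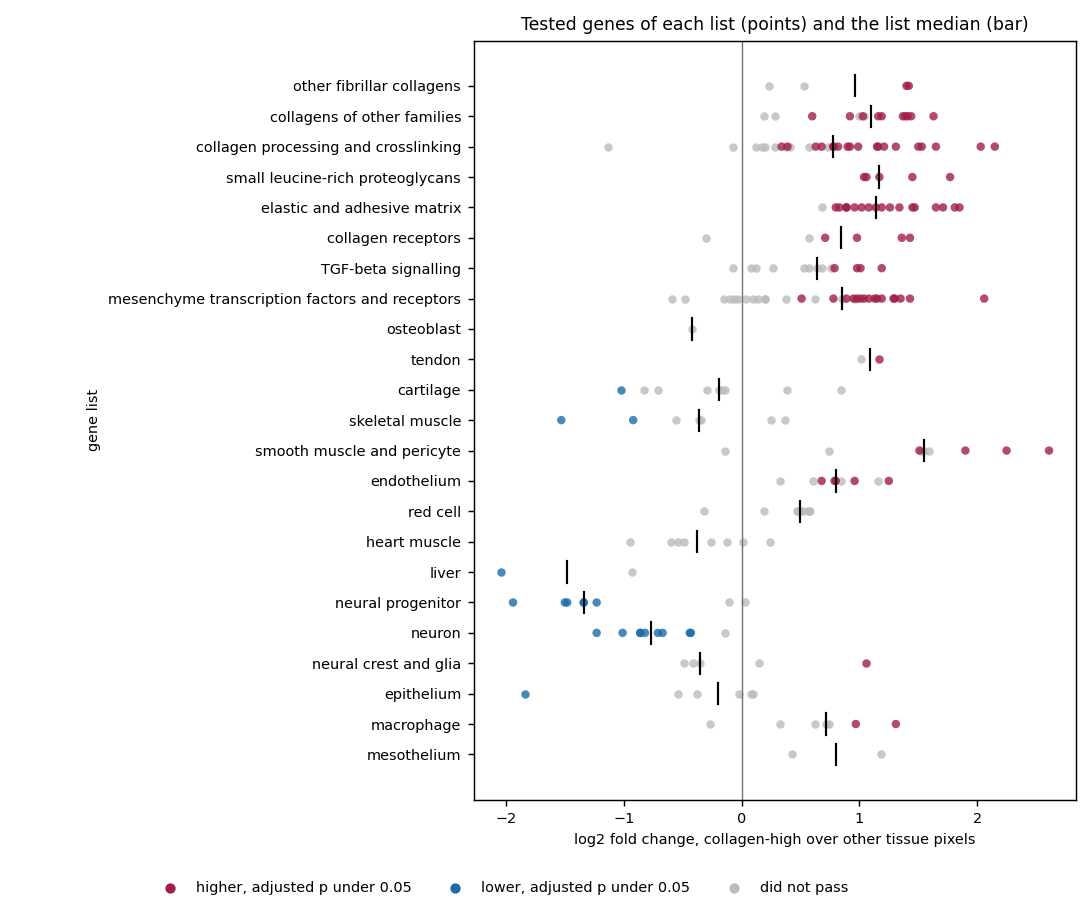
Log2 fold change between collagen-high and other tissue pixels for the tested genes of 23 lists, red where higher and blue where lower at an edgeR adjusted p under 0.05, grey where not passed, with a bar at each list's median. The medians of the matrix, collagen and vessel wall lists lie right of 0, and those of the neural progenitor and neuron lists left of it, at -1.34 and -0.76.

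Whether the contrast between collagen-high and other pixels differed between groups was tested as a difference of class effects. Between E11 and the mean of the E10 groups, 149 of 12480 genes differed in edgeR: for 90 (0.721%) the contrast was higher at E11 and for 59 (0.473%) it was lower. DESeq2 called 27 and 10. This comparison and the next share the E10 50 µm sections. Fn1 had a log2 difference of 1.74 ± 0.14 (SE; edgeR adjusted p = 1.57e-29). This fit left 4 residual degrees of freedom, so the p-value rests largely on a spread estimated over all genes tested. Fn1 measured 1290 and 1620 CPM in the E11 members against 275 and 397 CPM in the other pixels. In the E10 sections the members held 526, 242, 487, 296 and 220.0 CPM against 301, 239, 234, 324 and 219 CPM. The classes thus hardly differed in both 10 µm sections and in E10 50 µm section 2.

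Other matrix genes with a larger contrast at E11 were Postn (1.85), Loxl1 (2.13), Adamts2 (2.87), P4ha3 (2.41), Col12a1 (1.22), Vcan (0.95), Sparc (0.87), Mfap2 (0.74), Col4a2 (0.70) and Col4a1 (0.68), on the log2 scale. In the members of the 5 E10 sections Adamts2 had 0, 1, 3, 0 and 2 counts and P4ha3 had 3, 2, 9, 2 and 0. The sizes of their differences are therefore imprecise. Contractile genes were among the largest: Actg2, an actin of visceral smooth muscle, measured 213 CPM in E11 members against 9.76 CPM in the other pixels, and 6.73 against 2.13 CPM at E10 (log2 difference 3.20 ± 0.73 SE, edgeR adjusted p = 0.00262). Myh11 measured 106 against 4.79 CPM at E11 and 4.89 against 2.00 CPM at E10 (3.19 ± 0.70 SE, adjusted p = 0.00154). Tagln (1.41) and Cspg4 (3.01), a pericyte proteoglycan with 1 count in the E10 10 µm members, and the endothelial Cdh5 (1.24) and Flt1 (1.32) also passed. Ntrk3, the receptor for neurotrophin-3, measured 113 against 16.7 CPM at E11 and 25.7 against 31.6 CPM at E10 (3.41 ± 0.43 SE, adjusted p = 6.53e-12), and passed in 19 of 19 alternatives.

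Angpt2, an angiopoietin of remodelling vessels, measured 43.2 against 4.46 CPM at E11 and 6.12 against 3.32 CPM at E10 (edgeR adjusted p = 0.0265). Its 10 counts in E10 members all lay in the 50 µm sections, so its fitted log2 difference of 5.65 ± 1.54 (SE) is no estimate of size. It passed in 4 of 15 alternatives. Aldh1a3, which makes retinoic acid, had 7 counts in members of each stage, or 10.8 against 0.744 CPM at E11 and 4.28 against 8.69 CPM at E10 (4.89 ± 1.18 SE, adjusted p = 0.00611). Msx1, a factor of limb bud and facial mesenchyme, had the opposite contrast: members held 187 to 302 CPM at E10 and 52.4 and 52.5 CPM at E11, against 71.3 to 146 CPM and 153 and 96.3 CPM in the other pixels (log2 difference -2.50 ± 0.28 SE, adjusted p = 3.83e-15). It was thus higher in members in all 5 E10 sections and lower in both E11 sections. Thbs1 (-1.71), Hapln1 of cartilage (-1.35) and the heart genes Myh6 (-1.40) and Myl2 (-0.89) also had a lower contrast at E11. The Col2a1 limit of the rule bears on Hapln1.

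The 5 genes with the lowest fitted differences at E11 were Smoc2, Swsap1, Ptprz1, Itga2b and Zic4, and each had at most 1 count in the E11 members. No count of Smoc2, Swsap1 or Ptprz1 in the E11 members allows up to 4.63 CPM (3 counts over both sections). In the E10 members they measured 9.79, 17.7 and 59.3 CPM. Itga2b and Zic4 measured 1.54 CPM each at E11, from 1 count, and 20.8 and 95.4 CPM at E10. At this depth their fitted differences are not estimates of size. With the other pixels in the depth range of the members, 32 genes differed in all.

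Between E12 and E10 at the same pixel width of 50 µm, 108 genes differed in edgeR, 29 (0.232%) with a higher contrast at E12 and 79 (0.633%) with a lower one, while DESeq2 called 6 and 32. E12 is 1 section and was assumed to vary like the others. Epha4, an ephrin receptor, differed most firmly upward: 501 against 176 CPM at E12 and 80.7 against 153 CPM at E10 (log2 difference 2.38 ± 0.27 SE, adjusted p = 1.04e-14). Itgb8, an integrin chain that frees TGF-beta, measured 73.2 against 25.0 CPM at E12 and 29.6 against 73.1 CPM at E10 (2.73 ± 0.47 SE, adjusted p = 3.93e-06). Pappa, a protease of growth factor binding proteins, measured 81.1 against 29.2 CPM and 9.20 against 18.4 CPM (2.47, adjusted p = 0.0305). Lhx2 measured 23.7 against 11.8 CPM and 27.6 against 76.6 CPM (2.46, adjusted p = 0.0169). Ddit4l had 35 counts in E12 members and 2 in E10 members.

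Some matrix genes had a smaller contrast in the single E12 section than at E10. Of the 19 elastic and adhesive genes 5 had a lower contrast and none a higher one: Tnc (-2.81), Emilin1 (-1.68), Thbs1 (-1.55), Nid1 (-1.22) and Fbn2 (-0.80). For the 40 tested genes of collagen processing, small proteoglycans and collagen receptors, 1 section at E12 does not settle whether the contrast changed. Their lists had median log2 differences of -0.338, -0.324 and -0.581, against -0.03 over all genes tested. Col4a1 (-1.11), Col11a1 (-1.38) and the cartilage genes Col9a1 (-3.91) and Hapln1 (-3.10) also had a lower contrast. The Col2a1 limit of the rule bears on Col11a1 and the cartilage genes, and its part was not tested. Col2a1 itself measured 115 CPM in members against 621 CPM in the other pixels at E12. In E10 50 µm sections 1 to 3 it measured 138, 164 and 160 CPM against 260, 204.5 and 271 CPM. The red cell genes Hbb-bt (-2.48), Hbb-bs (-2.68) and Alas2 (-2.19) had a lower contrast as well. Klf1, Icam4 and Tspan32, further genes of blood cells, had 1, 2 and 5 counts in E12 members against 40, 37.9 and 71.1 CPM in the other pixels. Vtn, vitronectin, measured 7.91 against 61.7 CPM at E12 and 111 against 41.1 CPM at E10 (-4.56 ± 0.57 SE, adjusted p = 3.13e-12). The section differs from the E10 sections in its liver and red cell transcripts, and the part of that difference in these contrasts was not tested.

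Between 10 µm and 50 µm pixels at E10, 5 of 12480 genes (0.0401%) had a lower contrast at 10 µm in edgeR. None had a higher one, with 310 genes higher at an unadjusted p under 0.05 and none called by DESeq2. Ccnd2, cyclin D2, measured 996 against 1230 CPM at 10 µm and 2490 against 1840 CPM at 50 µm (log2 difference -0.89 ± 0.12 SE, adjusted p = 3.15e-09). Fn1 measured 264 against 292 CPM and 402 against 261 CPM (-0.78 ± 0.18 SE, adjusted p = 0.0318) and passed in 2 of 19 alternatives. Its contrast at 50 µm lay in sections 1 and 3, and section 2 held 242 against 239 CPM. The endothelial genes Vwf (7.62 against 17.9 CPM and 61.3 against 17.1 CPM; -3.02, adjusted p = 0.0096) and Plxnd1 (47.2 against 63.5 CPM and 109 against 45.8 CPM; -1.55, adjusted p = 0.0318) passed in 8 and 6 of 19. Ank1, a red cell ankyrin, had 1 count in the 10 µm members. Leaving out E10 50 µm section 2 raised the count of genes to 42 and leaving out E10 10 µm section 2 raised it to 24.

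Antibody tags gave a readout that the rule did not use. Tags for 22 antibodies were counted on the same pixels in 3 of the E10 sections (50 µm sections 1 and 3, 10 µm section 2). In the members of each, 77465 to 152418 tags fell. Members held 1802, 3810 and 629.3 tags per pixel in these sections, against 3305, 5846 and 794.5 in the other pixels. The antibody fits were not repeated in the members' depth range. Of 22 antibodies 2 (9.09%) were higher in collagen-high pixels and 4 (18.2%) lower in edgeR paired by section. The differences were small. The panendothelial cell antigen measured 360.3, 238 and 302 tags per 10000 in members against 316, 188 and 236 in the other pixels (log2 ratio 0.29 ± 0.05 SE, n = 3, adjusted p = 0.0293). ICAM2 (CD102), an adhesion molecule of endothelium, measured 687, 684 and 747 against 614, 613 and 607 (0.21 ± 0.04 SE, adjusted p = 0.0467). Both were higher in 3 of 3 sections.

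CD63, a membrane protein of endosomes, had the largest ratio and did not pass (0.40 ± 0.11 SE, edgeR adjusted p = 0.0924). It measured 525, 923 and 439 tags per 10000 in members against 440, 581 and 364, and was higher in 3 of 3 sections. CD41 (ITGA2B) measured 190, 223 and 198 against 182, 177 and 162. It was also higher in 3 of 3 sections and did not pass (0.23 ± 0.07 SE, edgeR adjusted p = 0.106). EPCR (CD201), a receptor of protein C on endothelium, measured 25.0, 72.8 and 37.2 against 28.5, 83.5 and 43.1 (-0.20, adjusted p = 0.00241). The folate receptor (-0.17, adjusted p = 0.0108), Notch1 (-0.16, adjusted p = 0.0218) and neuropilin 1 (CD304; -0.11, adjusted p = 0.0218) were also lower in 3 of 3 sections. None of these 6 calls held in more than 3 of 6 alternatives. With the top 20% of pixels, CD63 (edgeR adjusted p = 0.0109) and CD41 (adjusted p = 0.0427) passed. The folate receptor (adjusted p = 0.235) and Notch1 (adjusted p = 0.113) did not pass there. The endothelial antigens thus did not move one way: EPCR and KDR (CD309; -0.09, adjusted p = 0.0716) were lower in 3 of 3 sections.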

How the data were processed

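Transcripts were measured in 8 sections of mouse embryos, and antibody tags on 3 of them. The authors deposited 1 table per section of counts per gene symbol (or antibody) and pixel, which held only whole numbers and were not normalized. Per the submitters' processing notes, CASAVA 1.8.2 and the build GRCh38 were used, and the latter is not a mouse build. The aligner, annotation, use of strand, collapsing of duplicate reads and pixel filter are not given in the sources used here, so reads of overlapping, antisense or near-identical genes (the globins among them) may be shared. All sections use 1 grid of barcodes by design. GENCODE M21 was used for positions only. A gene with no column in a table was taken as 0 there.

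Section totals in collagen-high pixels were 247947 to 505377 counts and in other tissue pixels 4818454 to 11623737, so genes with few member counts are imprecise, and intervals and floors (3 counts) cover counting error only. Pixels were not treated as replicates: counts were summed per section and class and tested with edgeR 4.0.16 (TMM, default filter on low counts, robust quasi-likelihood fit, section as block, 7 residual degrees of freedom; 4 where each group had its own class effect), with limma 3.58.1 and R 4.3.3. P-values are two-sided and adjusted by Benjamini-Hochberg over all genes tested, or over the antibodies. Both sums of a section come from the same section, which is the reason for the block. The common dispersion was 0.0183. Alternatives were DESeq2 1.42.0, other scaling, no filter, no block, other pixel limits and leaving out each section; the limit to pixels with 4 tissue neighbours was added after seeing the data. Antibody tags were scaled to all tags of a sum.

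Genes named are the 15 largest rises and 10 largest falls among called genes with at least 50 member counts and 1 direction in 8 sections. Called members of each gene list were named as well (at most 6 upward and 4 downward, with up to 3 others). The 5 largest called differences between groups in each direction are named too. Of the antibodies, those with the 3 largest and 3 smallest ratios in 1 direction are named. Further list genes and antibodies were named after their values were seen. Genes of form Gm or Rik and ribosomal genes were not named, and 1 further gene is not reported here. The members and lists were chosen with earlier results of these data known.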

Additional observations from a re-analysis of the deposited data

Results flagged for a closer look

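In 2 of 29 values tested for a section far from the others, 1 section stood apart; about 1 in 20 such groups is picked out by chance. Osr1 had its largest log2 ratio, 2.71, in E10 50 µm section 2, against 1.33 to 1.87 in the other 7 sections. The share of collagen-high pixels at the tissue border was 83.7% in E10 50 µm section 1 and 24.6% to 50.0% in the others. The part of the rule's Col2a1 limit in this share was not tested.

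The contrast between collagen-high and other pixels differed between groups for 24 named genes by the edgeR test of that difference, and the values below are log2 differences. Between E11 and E10 they were 4.89 for Aldh1a3, 3.41 for Ntrk3, 3.20 for Actg2 and 3.19 for Myh11. Fitted values of -9.41 for Smoc2, -9.14 for Swsap1, -8.86 for Ptprz1, -5.20 for Itga2b and -4.01 for Zic4 rest on 0 or 1 count in the E11 members and are no estimate of size, and nor is the 5.65 for Angpt2, which had no count in the E10 10 µm members.

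Between E12 and E10 at 50 µm the differences were 4.02 for Ddit4l, 2.73 for Itgb8, 2.47 for Pappa, 2.46 for Lhx2 and 2.38 for Epha4. They were -5.63 for Klf1, -5.23 for Icam4, -4.56 for Vtn and -4.20 for Tspan32, and those of Klf1 and Icam4 rest on 1 and 2 counts in E12 members, as that of Ddit4l does on 2 counts in E10 members. Between 10 and 50 µm at E10 the differences were -4.89 for Ank1, on 1 count in the 10 µm members, -3.02 for Vwf, -1.55 for Plxnd1, -0.89 for Ccnd2 and -0.78 for Fn1.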

How the results depend on the processing

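No call of the comparison of collagen-high with other pixels turned its direction under any of 19 alternatives. Of the values of the 25 named genes under these, 439 kept their call and 36 lost it, 21 of them without the replicate block. Without the block 58 genes were higher and 6 lower, 1 gene differed at E11, 0 at E12 and 0 by pixel width, 0 antibodies passed, and held-out Col1a1 (2.20) and Col1a2 (1.43) no longer passed. In the members' depth range 417 genes were higher and 201 lower, and 32, 41 and 0 differed at E11, at E12 and by width. DESeq2 called 374 lower, and 37, 38 and 1. With no filter on low counts 1397 were lower, with 94 at E11 and 3 by width; with no Col2a1 limit 927 were lower. With the top 5% of pixels 71, 53 and 10 differed, and with 4 tissue neighbours required 49, 47 and 2. By width RLE factors gave 3, the top 20% 1, a tissue threshold of 0.2 1, and pixels not touching a member 1. Leaving out 1 section gave 555 to 806 higher and 468 to 643 lower genes. It gave 44 to 168 differing genes at E11, 86 to 148 at E12 and 1 to 42 by width, and 0 to 4 antibodies. TMM factors gave 3 antibodies. With the top 20% of pixels CD63, CD41, CD55, NK-1.1 and Siglec-H also passed in edgeR. The folate receptor and Notch1 no longer did. The cause of these differences was not tested. Of the 24 differences between groups, 259 values under alternatives kept their call and 163 lost it. Members hold few counts, which limits genes under about 50 counts, and the 3 antibody sections and single E12 section limit those comparisons most.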
